A study of Homo sapiens with 4 samples.

Results

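The bone morphogenetic protein (BMP) branch was described here by 10 genes: the ligand gene BMP4, the receptor genes BMPR1A and BMPR2, the receptor-activated SMAD genes SMAD1 and SMAD5, the inhibitory SMAD genes SMAD6 and SMAD7, and the target genes ID1, ID2 and ID3. They were found by name among the transcript accessions of the authors' deposited table and joined to 20 of the 47323 probes of the array. The genes were selected on their names with earlier values of the decoy against scrambled difference known, that of BMP4 among them, so their values are a description, with no p-value. RNA was taken 48 h after lipid transfection of MDA-LM2, a subline of the human breast cancer line MDA-MB-231 that readily colonises lung, with synthetic capped and polyadenylated RNA. The RNA given to the decoy group carried the element called sRSE in tandem, and the RNA given to the scrambled group held a scrambled sequence. Each group has 2 samples of the same line, 1 Illumina beadchip each, and none of these 4 samples was left without transfected RNA. The comparison asks which transcripts differ when copies of the element are present to titrate the factor that binds it. Nothing in the labels says that the 2 samples of a group were separate cultures, so standard errors and p-values reflect sample-to-sample spread that could be purely technical.

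BMP4 is a secreted ligand that binds paired type I and type II serine/threonine kinase receptors, such as those made by BMPR1A and BMPR2. The type I receptor phosphorylates SMAD1 and SMAD5, which enter the nucleus with SMAD4 and switch on target genes, among them ID1, ID2 and ID3. ID proteins bind E proteins and keep them from DNA, while SMAD6 and SMAD7 are themselves induced by the pathway and hold it back. In breast cancer cells BMP4 is known as a growth-restraining and motility-altering signal, and ID1 is known from work on lung colonisation.

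The promoters of 3 of these genes are shown because they stand for the ligand, an inhibitor and a target. BMP4 and ID1 differed between the groups as described below, while SMAD6 was close to background and its raw signals overlapped. Each window runs from 250 bases before to 50 bases after a RefSeq start site (GRCh38.p14), and capitals mark every match, on either strand, to GTCTAGAC, the palindromic SMAD-binding sequence, to GGCGCC, a GC-rich sequence bound by SMAD1 and SMAD5, or to the TATA box sequence TATAAA. BMP4 has 3 start sites in the RefSeq table, and the first is given, at chr14:53955001-53955300 on the minus strand. The windows of its other start sites hold none of these sequences. SMAD6 is given at chr15:66701986-66702285 on the plus strand, and ID1 at chr20:31605039-31605338 on the plus strand.
BMP4: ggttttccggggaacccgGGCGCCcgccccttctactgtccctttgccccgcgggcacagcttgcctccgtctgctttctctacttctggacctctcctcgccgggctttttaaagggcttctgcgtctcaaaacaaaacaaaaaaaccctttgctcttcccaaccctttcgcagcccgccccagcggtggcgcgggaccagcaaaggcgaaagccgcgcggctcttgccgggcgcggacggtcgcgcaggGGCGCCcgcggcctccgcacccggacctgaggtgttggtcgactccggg
SMAD6: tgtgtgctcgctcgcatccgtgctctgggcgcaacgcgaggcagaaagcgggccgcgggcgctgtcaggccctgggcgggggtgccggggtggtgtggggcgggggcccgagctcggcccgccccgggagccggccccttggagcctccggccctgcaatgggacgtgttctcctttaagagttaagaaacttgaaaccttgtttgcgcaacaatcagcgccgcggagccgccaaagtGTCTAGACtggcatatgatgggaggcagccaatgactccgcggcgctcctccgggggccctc
ID1: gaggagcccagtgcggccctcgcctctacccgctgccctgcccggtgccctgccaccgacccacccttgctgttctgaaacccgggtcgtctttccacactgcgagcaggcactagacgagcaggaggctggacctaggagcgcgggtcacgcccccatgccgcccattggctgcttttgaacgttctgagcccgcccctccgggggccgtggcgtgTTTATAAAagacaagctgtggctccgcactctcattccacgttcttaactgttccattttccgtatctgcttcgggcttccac

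The BMP4 window holds GGCGCC at 2 places, at positions -232 and 2 counted from the start site. The sequence GGCGCC occurs in 19.2% of the 35116 promoter windows of the RefSeq table. SMAD6 was the 1 gene of the 10 with GTCTAGAC, which begins at position -12 and occurs in 0.202% of all windows. ID1 holds TATAAA and its reverse complement in an overlapping stretch that begins at position -33, and 11.5% of all windows hold that sequence on either strand. Among all 18 windows of the 10 genes, GGCGCC was present for 4 genes and TATAAA for 4. These counts are by gene, and some genes have several windows, so they do not compare with the shares by window. These matches describe the letters of the windows and are neither binding sites nor causes of the differences.

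The arrays were read as log2 signals after background correction and quantile normalization. Decoy arrays 1 and 2 detected 13402 and 13512 probes, and scrambled arrays 1 and 2 detected 13449 and 13849, where detected means a detection p-value under 0.01 on that array. The 13889 probes detected on at least 2 of the 4 arrays were tested with limma, and 43.3% of them passed an adjusted p of 0.05, 21.4% higher and 21.9% lower with the decoy. These are 2973 higher and 3045 lower probes, against 3443 and 2082 when arrays were scaled by their medians. The raw signal of these probes was a median of 1.17-fold higher on the decoy arrays before normalization, so a raw ratio above 1 can go with a log2 difference near or below 0. The raw ratio that goes with 0 differed between probes. It was 1.079 for a difference of 0.01 on the brightest TGFBR2 probe and 1.209 for -0.05 on ID3. The median log2 difference of all tested probes, decoy minus scrambled, was -0.02 with a median standard error (SE) of 0.096. Of 8 markers of the parent line, 6 were detected on all 4 arrays, VIM, CD44, AXL and CAV1 among them, while the linked probes of SPARC and KRT18 were detected on 0 arrays. ESR1, PGR, CDH1 and ESRP1, which are low in the parent line, were detected on 0 arrays, and so were the leukocyte, endothelial and fibroblast markers PTPRC, VWF, COL1A1 and PDGFRB, whereas ERBB2, the monocyte marker CD14 and the endothelial marker PECAM1 were detected on all 4. CD14 read 7.52 and 7.79 with the decoy and 7.91 and 8.07 with scrambled RNA, and PECAM1 7.52 and 7.61 with the decoy and 7.01 and 6.57 with scrambled RNA, and their part in the results was not tested.

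Of the 20 probes, 12 were detected on at least 2 arrays, and these cover 8 of the 10 genes. SMAD1 and ID2 had no detected probe. Measured by its brightest probe, BMP4 was 1.40-fold higher and ID1 1.24-fold higher with the decoy. SMAD5 and SMAD7 were 1.32-fold and 1.39-fold lower, SMAD6 was close to background, and BMPR1A, BMPR2 and ID3 had log2 differences between -0.14 and -0.05 (n = 2 arrays per group). On a second detected probe of SMAD5 and of SMAD7 the groups overlapped, with log2 differences of 0.095 and -0.05.

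**Figure D1:**
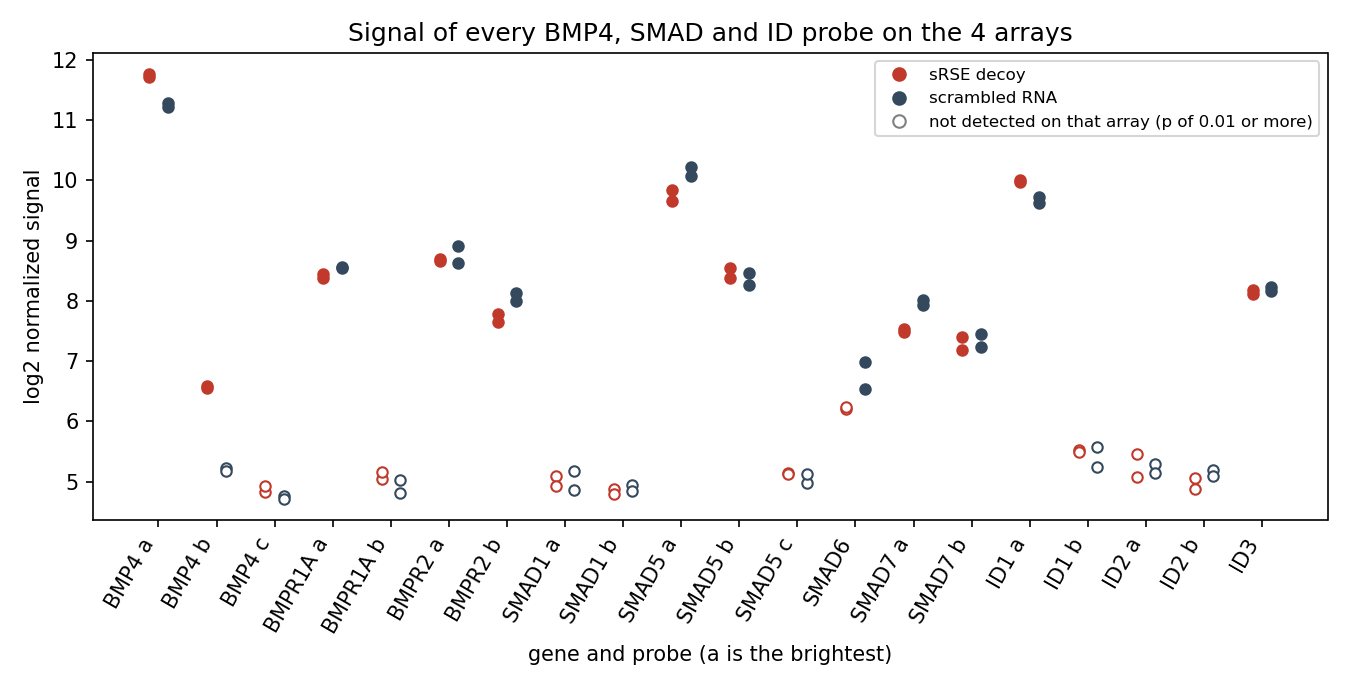
Each point is the log2 normalized signal of 1 probe on 1 array, with the 2 sRSE decoy arrays left of the 2 scrambled arrays and open points where the probe was not detected. BMP4 a and ID1 a lie higher on both decoy arrays, SMAD5 a, SMAD6 and SMAD7 a lie lower, and the probes of SMAD1 and ID2 are open on all 4 arrays.

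The ligand gene BMP4 had 3 probes. Its brightest read 11.76 and 11.72 on the log2 scale on the decoy arrays, against 11.29 and 11.22 on the scrambled arrays. Its raw signals were 3846 and 3393 with the decoy and 2576 and 2221 with scrambled RNA. Both decoy arrays lay above both scrambled arrays, as they did for 35% of all tested probes, while both lay below for 39.1%. The log2 difference was 0.49 ± 0.09 (SE, n = 2 per group), at percentile 89 of all tested probes. A dimmer BMP4 probe read 6.59 and 6.55 with the decoy and 5.22 and 5.18 with scrambled RNA. It was not well above background on either scrambled array, where its detection p-values were 0.149 and 0.162, while on the decoy arrays they were 0.00779 and 0.00909. With the dimmest detected signal of each scrambled array as its floor, it was at least 1.09-fold higher with the decoy, and its fitted difference of 1.37 ± 0.09 rests on signal below background. The remaining probe was detected on 0 arrays. In the authors' deposited table, the BMP4 accessions stand at log10 ratios of 0.0262 for the dimmer probe and 0.0142 for another transcript, percentiles 99.1 and 96 of its 39747 accessions. That table includes undetected probes, so its percentiles, here and below, do not compare with percentiles of the tested probes. The value 0.0142 is the authors' average of the brightest and the undetected probe, so it mixes measured signal with background.

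The type I receptor gene BMPR1A read 8.45 and 8.38 on the decoy arrays and 8.54 and 8.57 on the scrambled arrays. The decoy arrays lay below the scrambled arrays, with a log2 difference of -0.14 ± 0.09 (SE, 2 arrays per group). Its second probe was detected on 0 arrays. The type II receptor gene BMPR2 had 2 detected probes, which differed in their separation of the groups. The brighter read 8.66 and 8.70 with the decoy and 8.91 and 8.64 with scrambled RNA, so that the groups overlapped, with a difference of -0.09 ± 0.11. Its dimmer probe read 7.66 and 7.78 with the decoy and 8.14 and 8.0 with scrambled RNA, a difference of -0.35 ± 0.10 without overlap. The mean of both BMPR2 probes was -0.22. The authors' deposited table lists BMPR1A at -0.000468 and BMPR2 at -0.00818, percentiles 48.5 and 8.9. When arrays were scaled by their medians instead, BMPR1A came to -0.02 and the brighter BMPR2 probe to 0.01, so no direction is given for either receptor gene.

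SMAD1 and SMAD5 encode the SMADs that BMP receptors phosphorylate. Both SMAD1 probes were at background, with raw signals of 55.9 to 77.6 on the decoy arrays and 58.9 to 76.9 on the scrambled arrays and detection p-values of 0.175 to 0.740. For SMAD5 the brightest probe read 9.84 and 9.65 with the decoy and 10.23 and 10.07 with scrambled RNA. Both decoy arrays were the lower ones on this scale, with a log2 difference of -0.40 ± 0.10 (SE, 2 arrays per group). The raw signals of this probe overlapped, at 1096.4 and 880.7 with the decoy and 1226.5 and 995 with scrambled RNA, a ratio of 0.89. The second SMAD5 probe, which the authors averaged with the first, read 8.54 and 8.38 with the decoy and 8.27 and 8.47 with scrambled RNA. There the groups overlapped and the difference was 0.10 ± 0.11, so the 2 probes disagree in sign, and the mean of both was -0.15. One more SMAD5 probe was detected on 0 arrays. The authors' deposited table lists that average at -0.00727, percentile 10.7.

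**Figure D2:**
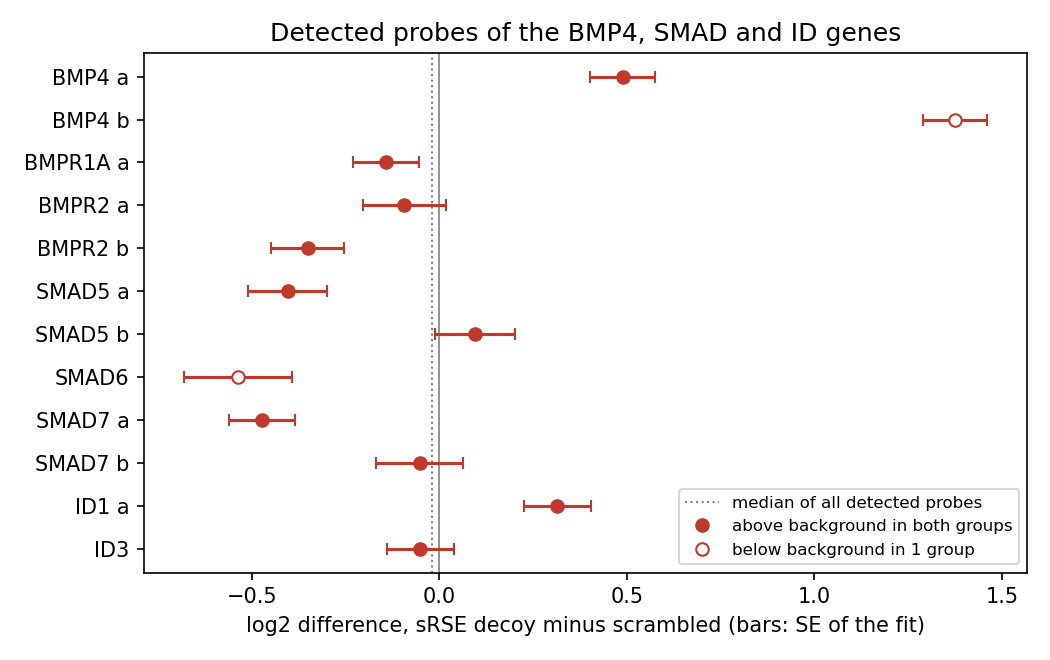
Points give the log2 difference, decoy minus scrambled, of the 12 detected probes, with the SE of the fit as bars, and the dotted line is the median of all tested probes at -0.02. The 2 BMP4 probes and ID1 lie to the right, SMAD6 and the brighter probes of SMAD5 and SMAD7 to the left, and the second probes of SMAD5 and SMAD7 lie near 0.

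SMAD6 and SMAD7 encode the inhibitory SMADs, which block receptors and bring ubiquitin ligases to them. SMAD6 was measured close to background. Its 1 probe read 6.21 and 6.23 on the decoy arrays, where detection p-values were 0.0130 and 0.0156, and 6.99 and 6.53 on the scrambled arrays, where they were 0.0026 and 0.00779. It was therefore above background in the scrambled group alone and entered the tested probes only through that group. Its raw signals overlapped, at 142.3 and 133.7 with the decoy and 164.4 and 127 with scrambled RNA, a ratio of 0.947. On the normalized scale it was at least 1.20-fold lower with the decoy, a bound of 1.02-fold without scrambled replicate 1 and 1.40-fold without scrambled replicate 2. The fitted difference of -0.54 ± 0.14 (SE, n = 2 per group) depended on scrambled replicate 1, and it was -0.31 without that array and -0.77 without scrambled replicate 2. SMAD7 had 2 detected probes. One read 7.49 and 7.53 with the decoy and 7.94 and 8.02 with scrambled RNA, a difference of -0.47 ± 0.09 without overlap. On the other the groups overlapped, at 7.41 and 7.19 with the decoy and 7.46 and 7.24 with scrambled RNA, a difference of -0.05 ± 0.12. The raw signals of the first SMAD7 probe were 267 and 252 with the decoy and 274 and 266 with scrambled RNA, a ratio of 0.962 that stood at percentile 18.4 of all tested probes. In the raw data this SMAD7 probe was thus nearly level, and its lower value arose after background correction and quantile normalization. The other SMAD7 probe had raw signals of 254.9 and 210.2 with the decoy and 210 and 175.8 with scrambled RNA. Its raw ratio was 1.206, at percentile 54.7, and the mean of both normalized probes was -0.26. The authors' deposited table lists SMAD6 at -0.0132 and SMAD7 at -0.00913, percentiles 3.9 and 7.5.

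Of the ID genes, which encode dominant-negative helix-loop-helix proteins, ID1 differed most. Its brighter probe read 9.97 and 10.01 on the decoy arrays and 9.63 and 9.73 on the scrambled arrays, and its raw signals were 1193 and 1099 against 806 and 787. Both decoy arrays were higher, with a log2 difference of 0.31 ± 0.09 (SE, n = 2 per group), at percentile 80.3 of all tested probes. A dimmer ID1 probe was detected on 0 arrays, and the authors' deposited table, which averages both, lists 0.00817 at percentile 91. ID3 read 8.18 and 8.11 with the decoy and 8.24 and 8.16 with scrambled RNA. These groups overlapped, with a difference of -0.05 ± 0.09 that became 0.10 with median scaling. Both ID2 probes were at background on all 4 arrays, with raw signals of 63.6 to 94.6 on the decoy arrays and 72.7 to 81.4 on the scrambled arrays. ID1 and ID3, which share a role, therefore stood at different places, and the difference between them was not tested.

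By the brightest probe, 5 of the 8 genes with a detected probe passed the threshold that 42.1% of the 8716 named genes passed. BMP4 and ID1 were the 2 on the higher side, where 18.9% of all genes passed, and SMAD5, SMAD6 and SMAD7 the 3 on the lower side, where 23.2% passed. Without SMAD6, detected in the scrambled group alone, 4 of 7 passed. With 1 array left out the count among the 8 genes was lower, except without scrambled replicate 2. The number of all tested probes that passed was lower each time. The differences then ran from 0.45 to 0.52 for BMP4, 0.26 to 0.36 for ID1 and -0.51 to -0.32 for SMAD5. They ran from -0.77 to -0.31 for SMAD6 and -0.51 to -0.44 for SMAD7. The count was 3 with median scaling, where SMAD6 and SMAD7 did not pass and 5525 of all 13889 tested probes passed. It was 2 with no detection filter, where 3453 of 47323 probes passed. Groups did not overlap for 2 higher and 4 lower genes of the 8, against 33.1% and 41.8% of all named genes. The median log2 difference of the 8 genes was -0.12, and that of all named genes was -0.04. Since the members were chosen with this comparison known, these counts say nothing further about the pathway.

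By the distance between log2 signals centred on each gene's own mean over the 4 arrays, the genes most like BMP4 were LDAF1, a lipid droplet assembly factor (distance 0.0152), the mitochondrial ribosomal protein gene MRPL49 (0.0164) and the lipid phosphatase gene PLPP1 (0.0194). BMP4 was used for this because it had the widest difference among members above background in both groups, and likeness over 4 arrays says little beyond the size of the shift.

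**Figure D3:**
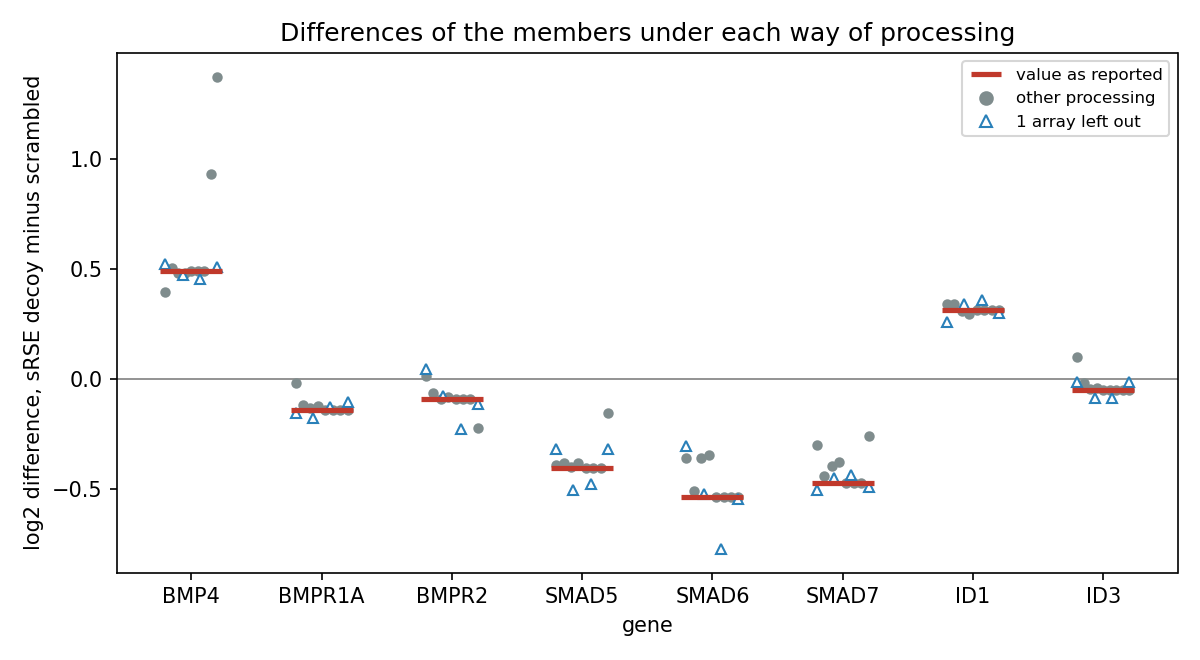
For each gene the bar gives the log2 difference as reported, circles the value under other processing and triangles the value with 1 array left out. BMP4 and ID1 stay above 0 and SMAD5, SMAD6 and SMAD7 below 0 in every setting shown, BMPR2 and ID3 cross 0, and the BMP4 circle at 1.37 is its dimmer probe.

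Around these 10 genes, 97 other genes of BMP and TGF-beta signalling were listed, of which 96 were joined to a probe and 45 had a detected one. With the decoy 3 rose, 10 fell and 32 did not pass (limma, adjusted over all 13889 tested probes), beside 18.9% of all named genes that rose and 23.2% that fell. One of the 3, TGFB2, was detected in the decoy group alone, and without it 2 of 44 rose. Their median log2 difference was -0.08, against -0.04 for all named genes. Rose and fell refer to normalized signals, set against a raw median shift of 1.17-fold. Raw ratios of the 10 that fell ran from 0.84 for USP15 to 1.07 for HES1. The count that fell was sensitive to single arrays, and the number of all tested probes that passed was also lower with any array left out. The count of these pathway genes that fell was 4 with median scaling, where 5 rose.

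Of 23 further ligands, 2 were detected. TGFB2, a TGF-beta isoform, was at least 1.3-fold higher with the decoy and not well above background with scrambled RNA. It entered the tested probes only through the decoy group, so its difference is given as a description. BMP2, the closest relative of BMP4, read 0.18 ± 0.11 and did not pass (limma adjusted p = 0.237). Among 6 detected antagonists and modulators 1 fell. This was TWSG1, which binds BMPs outside the cell, at -0.38 ± 0.10 (limma adjusted p = 0.0156), but its dimmer probe read 0.30 and the mean of both, -0.04, did not pass. The antagonist gene FST read 0.08 ± 0.09 by its brightest probe and did not pass, while its dimmer probe read -0.34 ± 0.12 (limma adjusted p = 0.0485).

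Of 8 other receptors and co-receptors detected, 2 fell. The TGF-beta co-receptor gene TGFBR3 fell by 0.36 ± 0.09 on the log2 scale and the BMP co-receptor gene RGMB by 0.26 ± 0.09 (limma adjusted p = 0.0147 and 0.0415). RGMB lost its call in 8 of its 13 alternatives and TGFBR3 in 3. The type II TGF-beta receptor gene TGFBR2 read 12.32 on average with the decoy and 12.31 with scrambled RNA, a difference of 0.01 ± 0.09 that did not pass. TGFBR1 had no detected probe.

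SMAD4, the partner shared by both branches, fell by 0.39 ± 0.11 (limma adjusted p = 0.0242), and its call was lost without decoy replicate 1 (-0.26), without scrambled replicate 2 (-0.35), with median scaling (-0.32) and with no detection filter. SMAD3, which acts for TGF-beta and activin, read -0.14 ± 0.09 and did not pass, and neither SMAD2 nor SMAD9 had a detected probe. Of 21 detected regulators of receptors and SMADs, 1 rose and 4 fell. STUB1, a ubiquitin ligase that targets SMADs among other proteins, read 10.01 on average with the decoy and 9.06 with scrambled RNA, and rose by 0.95 ± 0.12 (limma adjusted p = 0.00119). USP15, a deubiquitinase that acts on TGF-beta receptors and SMADs, fell by 0.71 ± 0.10 (limma adjusted p = 0.00136). ZFYVE16, an endosomal SMAD adaptor, fell by 0.42, USP9X, which removes ubiquitin from SMAD4, by 0.41, and the ubiquitin ligase WWP1 by 0.41 (limma adjusted p = 0.0204, 0.0124 and 0.0113). ZFYVE16 lost its call in 4 of 12 alternatives, among them without decoy replicate 2 (-0.30) and without scrambled replicate 2 (-0.34), and its second probe read -0.21 and did not pass. USP9X lost its call in 3 of 13, among them without decoy replicate 1 (-0.36) and without scrambled replicate 2 (-0.33), and WWP1 in 2 of 12, among them without decoy replicate 2 (-0.34). STUB1 and USP15 kept their calls in all 12 and 13 alternatives.

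The partners and targets were few. TCF12, an E protein that ID proteins bind, fell by 0.38 ± 0.09 (limma adjusted p = 0.00992), a call lost with median scaling (-0.28) and without decoy replicate 2 (-0.25). The E protein gene TCF3 read 0.10 ± 0.09 and did not pass, and ID4 had no detected probe. HES1, a repressor also controlled by Notch, fell by 0.28 ± 0.09 (limma adjusted p = 0.0426), a call lost in 6 of 13. Raw HES1 signals were higher with the decoy, at 244 and 227.9 against 218.7 and 221.5 with scrambled RNA. CCN2 read 0.03 ± 0.09 and RUNX2 0.15 ± 0.09, and neither passed. More than 1 detected probe was available for 14 of the 45 genes, and for 5 of these the signs differed between probes. Among genes that did not pass by their brightest probe, a dimmer probe passed for LEMD3 (-0.75), MAP3K7 (0.88), PMEPA1 (0.81), TGIF1 (0.42 and 0.39) and FKBP1A (0.40, 0.38 and -0.31), as it did for FST.

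**Figure D4:**
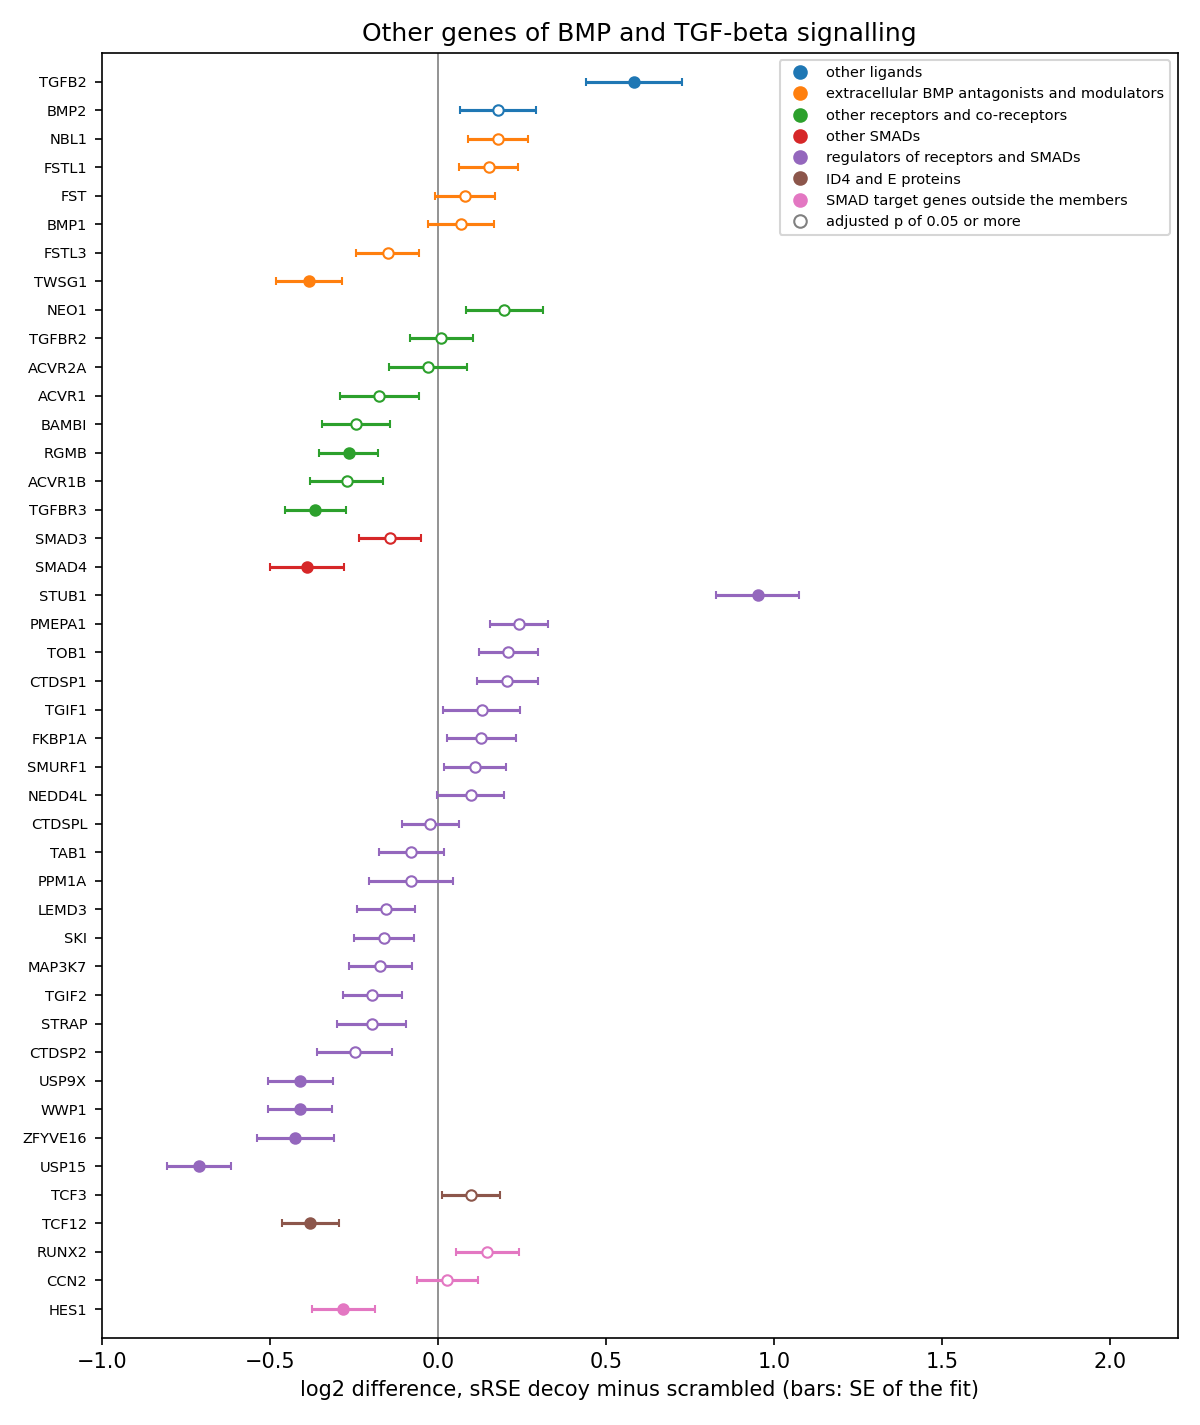
Each row is 1 of 44 further pathway genes by its brightest detected probe, with the log2 difference, decoy minus scrambled, on the horizontal axis, the SE as bars and filled points where the adjusted p was under 0.05. STUB1 and TGFB2 are the filled points to the right of 0 and the other 10 filled points lie to the left, down to USP15 at -0.71.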

How the data were processed

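The authors deposited raw intensities that are not normalized, with a detection p-value beside each, per the file headers. They also deposited normalized intensities whose processing used lumi, as the submitters' processing notes name it without a version, and 1 log fold change per accession with no base stated in its header. The deposited values behave as a log10 ratio between groups, after an inverse hyperbolic sine transform of the normalized intensities and averaging within each group. Of 39747 accessions, 32377 matched 1 probe within 6e-10. A further 5142 matched the average of adjacent probes of the raw table (5.75 by chance), and 495, the one with BMP4's brightest probe among them, matched probes around another probe of the same gene. Gene names came from RefSeq (GRCh38.p14), which named 21319 of the 38014 accessions joined. In an earlier analysis of these data only the single-probe matches were named, which left BMP4 with its dim probe alone.

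In limma 3.58.1 (R 4.3.3) raw intensities were corrected by normexp with detection p-values, offset 16, then quantile normalized in log2 units (neqc). In decoy replicate 1, 3 detection p-values repeated the signal and were filled in from probes nearest in signal. Probes with detection p under 0.01 on 2 arrays or more were tested by lmFit and eBayes with Benjamini-Hochberg adjustment. A gene was read by its brightest detected probe. Not well above background means a detection p of 0.01 or more on each of a group's 2 arrays. Precision is limited by 2 arrays per group. The single-probe join and the fit were tested on simulated data, but the matches to averages of probes were not. Of 4128 named sets of adjacent probes, 88.3% lay alphabetically between their named neighbours in the raw table.

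Members, lists and the naming rule (all members, pathway genes that passed, and TGFBR1, TGFBR2, SMAD2, SMAD3, SMAD4, SMAD9 and ID4) were chosen with earlier results of these data known. One pathway gene is in the counts but is not reported here. Other pathway genes named were chosen after their values were seen. Alternatives changed the scaling, the values, the background step, the detection filter, the probe rule, the join and the arrays.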

Additional observations from a re-analysis of the deposited data

How the results depend on the processing

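BMP4 and ID1 stayed higher, and SMAD5, SMAD6 and SMAD7 lower, in every alternative that gave them a value. All alternatives reuse the same 4 arrays and read a gene by its brightest probe or a mean, so constant signs are no independent support. The second SMAD5 probe, at 0.095, was not read alone in any of them. With single-probe names BMP4 was read by its dim probe, detected in the decoy group alone. The members were chosen with this comparison known, so calls kept or lost do not rank them. Of 12 alternatives each, SMAD7 lost its call in 1, ID1 in 4, SMAD5 in 4 and SMAD6 in 5. BMPR2 changed sign in 2 of 12 (0.01 with median scaling and 0.04 without scrambled replicate 1) and ID3 in 1 of 13. SMAD6 had no value with detection on all 4 arrays. The BMP4 difference ran from 0.40 to 1.37, where 1.37 is the dim probe that single-probe names leave, a choice made after seeing the data. The median of the 8 genes was -0.12, -0.0039 with median scaling, and -0.1773 to -0.0839 with 1 array left out. With single-probe names only 3 of them had a value, and the median of these, -0.0517, was the ID3 value. TGFBR2, which did not pass, became -0.10 with median scaling, -0.0632 without scrambled replicate 1 and -0.0170 without decoy replicate 2, within -0.0632 to 0.0848 with 1 array left out. Of all tested probes 2973 were higher and 3045 lower. Median scaling gave 3443 higher and 2082 lower, no detection filter 1895 and 1558, and leaving out 1 array 1878 to 2558 higher and 1816 to 2469 lower. Of the other pathway genes 3 were higher and 10 lower. This became 5 and 4 with median scaling, 2 lower without a detection filter, 6 higher as the mean of detected probes, and 2 to 3 higher and 3 to 9 lower with 1 array left out. With the replicate number as a block, 2936 probes were higher and 2999 lower, and 3 and 9 pathway genes. The numbers are only names here, since deviations of same-numbered arrays correlated at -0.008. The causes of these shifts were not tested. Signal close to background limits SMAD6, TGFB2 and the dim BMP4 probe.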
